A study of Homo sapiens with 6 samples.

Results

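The genes described are those of 4 enzyme families that process drugs, pollutants, hormones and reactive aldehydes. They are the cytochromes P450 (CYP), the aldehyde dehydrogenases (ALDH), the glutathione S-transferases (GST) of the symbols given below and the UDP-glucuronosyltransferases (UGT). The families were chosen with earlier results of these data known, so the shares called among them are a description and no independent evidence. Within them, members were taken by name. Every probe was taken whose annotated symbol begins with CYP and a digit, ALDH, GSTA, GSTM, GSTO, GSTP, GSTT, UGT1 or UGT2. The rule found 131 probes of 100 genes among the 19090 named genes of the table, namely 56 CYP, 19 ALDH, 14 GST and 11 UGT genes. After the dimmest 40% of the named probes had been left out, 60 of the 100 members were measured (28 CYP, 16 ALDH, 10 GST and 6 UGT), against 12350 of all genes, and 40 members were too dim. The measured share was 84.2% for ALDH, 71.4% for GST, 54.5% for UGT and 50% for CYP, beside 64.7% for all genes.

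CYP enzymes are haem proteins of the endoplasmic reticulum or mitochondria that insert oxygen into a substrate, ALDH enzymes oxidise aldehydes to acids, GST enzymes attach glutathione to reactive compounds, and UGT enzymes attach glucuronic acid so that a product can be exported. In the airway epithelium CYP1A1 and CYP1B1 are known as the enzymes that oxidise polycyclic aromatic hydrocarbons of smoke, and the aryl hydrocarbon receptor induces them; other CYP and ALDH members make or break down hormones such as retinoic acid and the vitamin D hormone.

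The cells were H358, a human lung carcinoma line of bronchioalveolar type, hybridised to 6 single-colour arrays. Of the 2 lines, 1 carried GFP and has the genotype label control, and the other has the label YAP(5SA), a mutant of the transcriptional coactivator YAP that lacks the serines through which the Hippo kinases inhibit it. Each line was given vehicle, IL-1b or TNFa for 60 min, with 1 array per condition, all in serum-containing medium; the labelled cytokine dose, 10 g/ml, cannot be meant as written. The promoter that drives either transgene, and whether a line is 1 clone, are not stated in the labels. The series title asks which genes respond to YAP in the presence of the cytokines.

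Levels are log2(intensity + 16) throughout, and differences are differences of these levels, so a difference of 1 is a doubling and the change of a dim gene is understated. A probe's level depends on its own sequence and is not compared with that of another gene. The line difference is the YAP(5SA) line minus the GFP line, averaged over the 3 pairs of arrays given the same treatment, from an additive limma fit over all 12350 genes with Benjamini-Hochberg adjustment; calls have an adjusted p under 0.05. No condition was repeated and nothing states that arrays came from separate cultures, so the standard errors (SE) reflect the variation of the difference over the treatments, moderated towards all genes: the prior held 34.3 degrees of freedom and each gene 2. Median intensities per array ran from 335.2 to 398.1, the small number of arrays limits the precision, and with 1 line of each kind the label cannot be told apart from any other difference between the lines. The probe for YAP1 read 12.91, 12.88 and 12.46 on the GFP arrays and 11.67, 12.31 and 12.08 on the YAP(5SA) arrays, a difference of -0.73 (limma adjusted p = 0.0120); its position is not known here, so it checks nothing about a transgene. Of 6 epithelial markers 5 were measured and KRT19 was too dim, while of 9 club and alveolar markers SCGB1A1, SCGB3A2 and ABCA3 were measured and the surfactant genes SFTPA1, SFTPB, SFTPC and SFTPD were too dim. Of markers of other cell types, 4 of 7 for leukocytes were measured (CD14, CD68, MS4A1 and HLA-DRA, but not PTPRC, CD3E or LYZ), 2 of 6 for fibroblasts (COL1A1 and PDGFRB, but not COL3A1 or DCN), 2 of 4 for endothelium (CDH5 and VWF) and 2 of 4 for hepatocytes (APOA1 and SERPINA1, but not ALB or TTR).

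The 7 members that differed by at least 1 on the log2 scale were all lower in the YAP(5SA) line: ALDH3A1, ALDH2, CYP1A1, CYP24A1, CYP4F2, CYP1B1 and GSTO2. Of 60 measured members, 13 fell and 2 rose in the YAP(5SA) line, and 45 did not pass the test. That is 21.7% lower and 3.33% higher, beside 8.91% lower and 7.9% higher among all 12350 genes, and 25% against 16.8% in either direction. The median difference of the measured members was -0.20, with 37 of 60 below 0 (61.7%), beside -0.01 and 51.5% for all genes. It was -0.10 without the vehicle pair and -0.37 without the TNFa pair, beside 0.03 and -0.09 for all genes. These counts cover only members that passed the filter, and the families were chosen with earlier results of these data known. Among the 15 called members, 11 had a mean above the filter in both lines, while CYP1A1, CYP4F2, GSTO2 and ALDH1A3 passed it through the GFP line alone, so these 4 could be measured only because their GFP readings were the higher ones. Among the 54 members with a mean above the filter in both lines, a count added after seeing the data, 9 fell and 2 rose (16.7% and 3.7%), beside 7.98% and 7.36% of the 11924 genes that met the same condition.

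**Figure D1:**
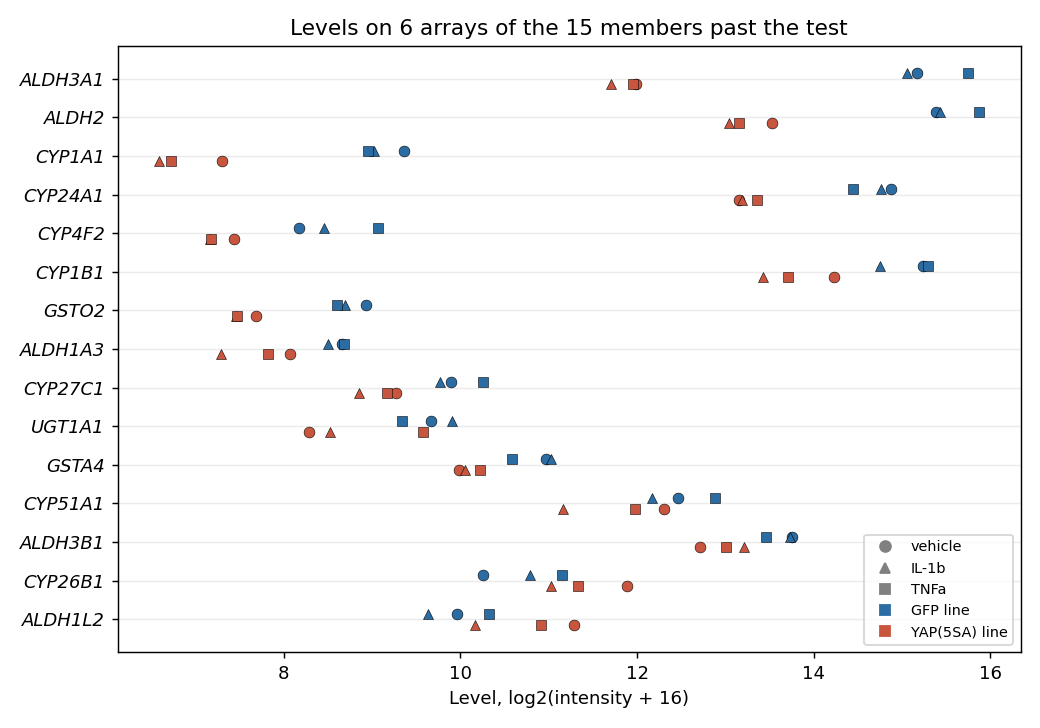
Levels, log2(intensity + 16), of the 15 members past the test on each of the 6 arrays; colour marks the line (blue GFP, red YAP(5SA)) and shape the treatment. The lines stand farthest apart for ALDH3A1, with a mean difference of -3.44, and overlap for UGT1A1, CYP51A1, CYP26B1 and ALDH1L2.

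The promoter windows of 3 members are shown because their families are textbook targets of the aryl hydrocarbon receptor and of NRF2, the factor that switches on antioxidant genes. CYP1A1 and GSTA4 fell between the lines, and UGT1A6 did not pass the test. Each window holds the 250 bases before an annotated start in RefSeq on GRCh38.p14, printed 5′ to 3′ on the strand of the gene. The CYP1A1 window is chr15:74725529-74725778 on the minus strand, the GSTA4 window chr6:52995285-52995534 on the minus strand and the UGT1A6 window, at the first of 2 annotated starts, chr2:233691452-233691701 on the plus strand. Capitals mark the receptor's core letters GCGTG in CYP1A1 (from position -57) and the antioxidant letters TGACNNNGC in GSTA4 (from position -9). In UGT1A6 they mark the longer receptor letters TNGCGTG, which contain the core (from position -202). Each window shown holds a match, while the windows of CYP1A2 and UGT1A1, not shown, hold none of these letters. The second UGT1A6 window, also not shown, holds the antioxidant letters from position -98.
CYP1A1: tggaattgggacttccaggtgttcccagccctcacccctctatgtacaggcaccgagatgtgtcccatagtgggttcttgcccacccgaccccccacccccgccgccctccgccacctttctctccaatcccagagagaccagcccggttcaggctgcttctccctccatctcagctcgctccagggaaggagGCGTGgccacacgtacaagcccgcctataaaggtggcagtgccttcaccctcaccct
GSTA4: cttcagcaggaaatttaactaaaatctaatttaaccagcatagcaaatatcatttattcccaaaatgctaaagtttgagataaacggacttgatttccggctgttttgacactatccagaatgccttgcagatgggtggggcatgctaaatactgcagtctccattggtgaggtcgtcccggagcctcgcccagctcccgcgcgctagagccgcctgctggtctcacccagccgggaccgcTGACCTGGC
UGT1A6: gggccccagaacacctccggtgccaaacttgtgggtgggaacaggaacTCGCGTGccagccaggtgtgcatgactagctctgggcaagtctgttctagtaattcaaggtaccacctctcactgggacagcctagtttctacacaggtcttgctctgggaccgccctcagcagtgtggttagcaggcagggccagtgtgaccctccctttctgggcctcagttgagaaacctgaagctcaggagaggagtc

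Windows of this length were found for 48 of the 60 measured members and 10 of the 15 called ones, and both strands were searched. The called members with no window were ALDH3A1, ALDH2, ALDH1L2, CYP24A1 and CYP1B1, which include 4 of the 7 with a difference of at least 1. Counted per gene over all its windows, TNGCGTG was found for 5.54% of all 27305 genes and for 4 of the 48 members, none of them called. Its core GCGTG was found for 36.2% of all genes and for 15 members, 5 of them called. TGACNNNGC was found for 13.2% of all genes and for 8 members, of which GSTA4 alone was called, and GGAATG, the letters bound by the TEAD partners of YAP, for 14.3% of all genes and 5 members, of which CYP27C1 alone was called. Per window the shares were 4.52%, 32.2%, 10.9% and 11.9% of 35116. A match is a description of the letters in the window and not of binding. Letters outside the windows were not searched, so a gene without a match may have one farther away.

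Among the aldehyde dehydrogenases 4 of 16 measured genes fell and ALDH1L2 rose, while the family median stayed near that of all genes, at 0.03. ALDH3A1, which oxidises aromatic and medium-chain aldehydes and is known as a marker of smoke exposure in airway cells, read 15.17, 15.05 and 15.75 on the vehicle, IL-1b and TNFa arrays of the GFP line, and 11.99, 11.70 and 11.95 on those of the YAP(5SA) line. Every GFP array was above every YAP(5SA) array by more than 3. The difference was -3.44 ± 0.21 (limma SE, 3 pairs, 95% interval -3.86 to -3.02, adjusted p = 4e-16), or 10.9-fold lower.

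ALDH2, the mitochondrial enzyme that clears acetaldehyde, read 15.39, 15.43 and 15.88 in the GFP line and 13.53, 13.04 and 13.16 in the YAP(5SA) line. No GFP array overlapped with a YAP(5SA) array, and ALDH2 fell by 2.32 ± 0.21 (limma SE, adjusted p = 3.18e-11), 4.99-fold. ALDH1A3, which makes retinoic acid from retinaldehyde, read 8.66, 8.50 and 8.68 against 8.07, 7.29 and 7.83. Its difference was -0.88 ± 0.21 (limma adjusted p = 0.00161) without overlap, and the call was lost without the IL-1b pair (-0.72, adjusted p = 0.205).

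ALDH3B1, which acts on aldehydes from lipids, read 13.76, 13.73 and 13.46 in the GFP line and 12.71, 13.20 and 13.01 in the YAP(5SA) line. Every GFP array lay above every YAP(5SA) array. The difference was -0.67 ± 0.21 (limma adjusted p = 0.0189), and the call was lost without the vehicle pair (-0.49, adjusted p = 0.167) and without the IL-1b pair (-0.75, adjusted p = 0.171). The only ALDH gene that rose was ALDH1L2, a mitochondrial enzyme of folate metabolism, with 9.96, 9.64 and 10.32 in the GFP line and 11.28, 10.16 and 10.91 in the YAP(5SA) line. The lines overlapped, since the YAP(5SA) IL-1b array lay below the GFP TNFa array. The difference was 0.81 ± 0.21 (limma adjusted p = 0.00461), with 1.32 in the vehicle pair, 0.53 in the IL-1b pair and 0.59 in the TNFa pair, and the call was lost without the vehicle pair (0.56, adjusted p = 0.106).

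The other 11 ALDH genes did not pass the test. ALDH1A1, the cytosolic retinaldehyde dehydrogenase used as a stem cell marker, read 17.51, 17.45 and 17.82 in the GFP line and 18.15, 17.39 and 17.98 in the YAP(5SA) line, a difference of 0.25 (limma adjusted p = 0.508) with overlapping lines. ALDH3A2, which oxidises fatty aldehydes and is the neighbour of ALDH3A1 in the family, gave -0.35 (limma adjusted p = 0.306), and ALDH3B2 gave -0.33 (limma adjusted p = 0.329). The difference was -0.18 for ALDH5A1 (succinate semialdehyde), 0.02 for ALDH18A1 (proline synthesis), 0.04 for ALDH7A1 (lysine breakdown), 0.18 for ALDH9A1 (carnitine synthesis), 0.34 for ALDH4A1 (proline breakdown) and 0.39 for ALDH6A1 (valine breakdown). ALDH1B1, a mitochondrial relative of ALDH2, gave 0.19 and ALDH16A1 0.13. A further probe of ALDH4A1 gave -0.04, opposite in sign to the brighter one, and a further probe of ALDH7A1 gave 0.44. The lines did not overlap for 8 of 16 ALDH genes (50%, beside 28.2% of all genes), among them ALDH3B2, ALDH5A1, ALDH16A1 and ALDH6A1, whose differences did not pass the test.

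**Figure D2:**
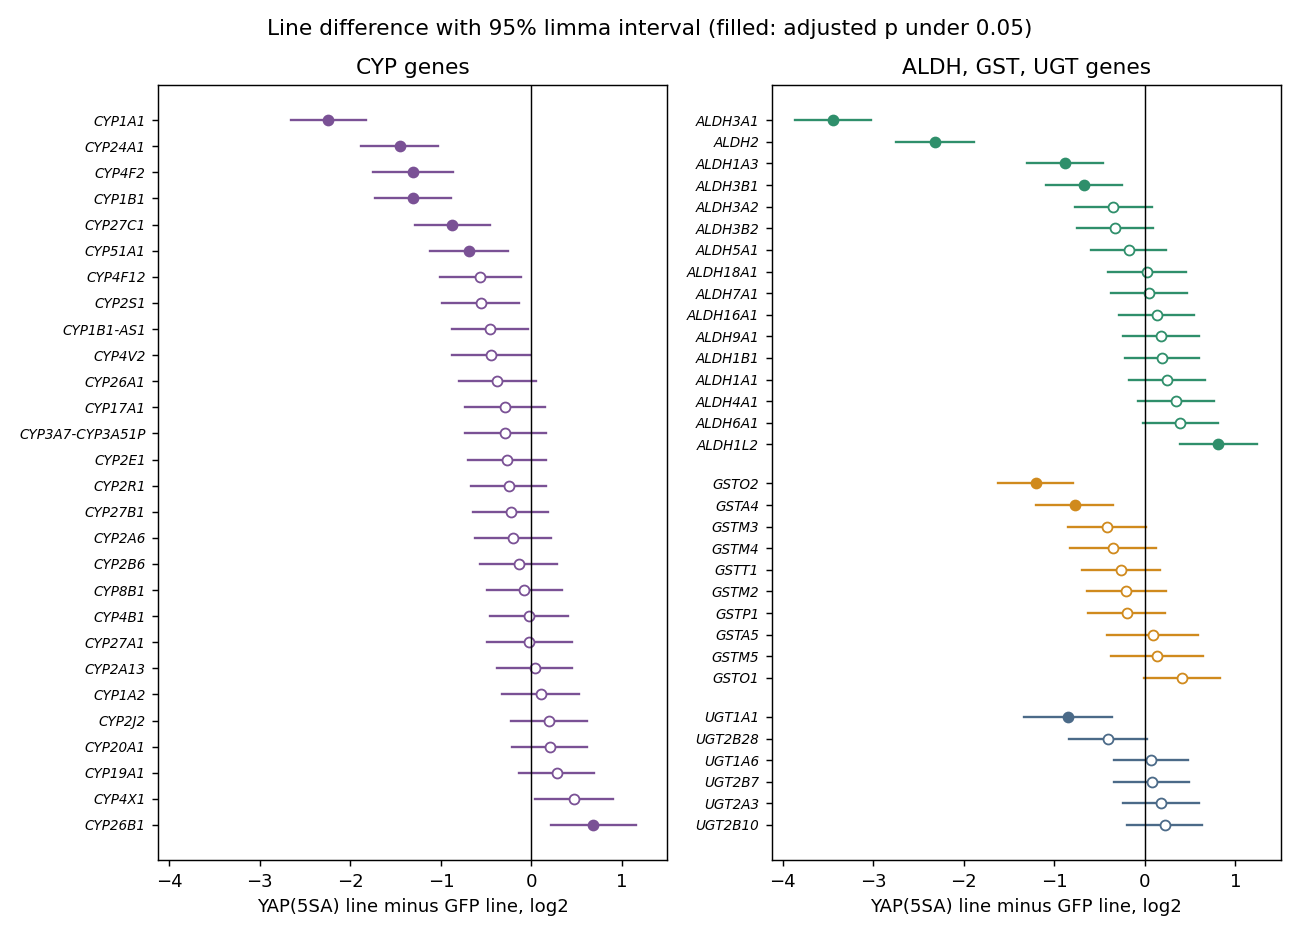
Line difference, YAP(5SA) minus GFP on the log2 scale, of all 60 measured members with the 95% interval of the limma fit; filled points have an adjusted p under 0.05. Most CYP points lie left of 0 (21 of 28), and the ALDH points run from -3.44 to 0.81.

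Among the 28 measured CYP genes, which include the antisense RNA gene CYP1B1-AS1, 6 fell and CYP26B1 rose, with a family median of -0.26 and 21 of 28 below 0. The median was -0.14 without the vehicle pair, -0.16 without the IL-1b pair and -0.47 without the TNFa pair. CYP1A1 and CYP1B1, which oxidise polycyclic aromatic hydrocarbons, both fell. CYP1A1 read 9.36, 9.02 and 8.95 on the vehicle, IL-1b and TNFa arrays of the GFP line, and 7.31, 6.58 and 6.72 on those of the YAP(5SA) line. The lines did not overlap, and the difference was -2.24 ± 0.20 (limma SE, 3 pairs, adjusted p = 3.27e-11). All 3 of its YAP(5SA) readings lay under the filter level of 7.79, where the added 16 compresses a ratio most.

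CYP1B1 read 15.24, 14.75 and 15.30 in the GFP line and 14.23, 13.43 and 13.71 in the YAP(5SA) line. Readings of the lines were separate, and the difference was -1.30 ± 0.21 (limma adjusted p = 5.97e-06), 2.47-fold lower. Its antisense RNA, CYP1B1-AS1, gave -0.46 (limma adjusted p = 0.145). CYP1A2, the third enzyme of this subfamily, which metabolises caffeine, read 16.03, 15.79 and 15.35 against 16.04, 15.55 and 15.88, so that the lines overlapped and the difference was 0.10 (limma adjusted p = 0.826). The sequences and positions of the probes are not given here, and whether a probe also binds RNA of a close relative was not tested; this limit applies to the near-identical members of the CYP1A, CYP2A, CYP3A, CYP4F, GSTM, GSTA and UGT2B groups as well.

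Of the 6 measured CYP24, CYP26 and CYP27 enzymes, which act on vitamin D, retinoids and sterols, CYP24A1 and CYP27C1 fell, CYP26B1 rose and 3 did not pass the test. CYP24A1, which inactivates the vitamin D hormone, read 14.87, 14.76 and 14.44 in the GFP line and 13.16, 13.19 and 13.36 in the YAP(5SA) line. All 3 GFP readings lay above all YAP(5SA) readings, and CYP24A1 fell by 1.46 ± 0.21 (limma adjusted p = 8.82e-07), 2.74-fold. CYP27B1, which makes that hormone, gave -0.23 (limma adjusted p = 0.533), and the sterol hydroxylase CYP27A1 gave -0.02.

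CYP27C1, known to convert retinol to a dehydrogenated form, read 9.90, 9.77 and 10.25 against 9.27, 8.85 and 9.17. It fell without overlap by 0.87 ± 0.21 (limma adjusted p = 0.00164), and the call was lost without the IL-1b pair (-0.85, adjusted p = 0.0873). CYP26B1, which breaks down retinoic acid, read 10.26, 10.79 and 11.15 in the GFP line and 11.89, 11.02 and 11.33 in the YAP(5SA) line. The lines overlapped, and the difference of 0.68 ± 0.23 (limma adjusted p = 0.0363) was made up of 1.63 in the vehicle pair, 0.24 in the IL-1b pair and 0.18 in the TNFa pair. Without the vehicle pair it was 0.21 (limma adjusted p = 0.632), and the call was also lost without the IL-1b pair (0.91, limma adjusted p = 0.0580). The same held without the covariate (0.174), with the mean of all probes above the filter (0.0974) and with no filter (0.177). CYP26B1 has 1 probe, so the mean of probes left its difference at 0.68. CYP26A1, with the same reaction, gave -0.38 (limma adjusted p = 0.256) with no overlap between the lines.

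Among the fatty acid hydroxylases of the CYP4 subfamily 1 of 5 measured genes fell. CYP4F2, which hydroxylates leukotriene B4 and vitamins E and K, read 8.18, 8.46 and 9.06 in the GFP line and 7.44, 7.17 and 7.18 in the YAP(5SA) line. The lines did not overlap, and the difference was -1.30 ± 0.22 (limma adjusted p = 1.39e-05). CYP4F12 gave -0.56 (limma adjusted p = 0.0753) and CYP4V2, an eye disease gene, -0.45, whereas CYP4X1 gave 0.47 (limma adjusted p = 0.145) and CYP4B1 -0.03. Without the vehicle pair CYP4X1 was called higher (0.72, limma adjusted p = 0.0307).

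CYP51A1, the lanosterol demethylase of cholesterol synthesis, read 12.46, 12.17 and 12.88 in the GFP line and 12.30, 11.16 and 11.98 in the YAP(5SA) line. The YAP(5SA) vehicle array lay above the GFP IL-1b array, so the lines overlapped. CYP51A1 fell by 0.69 ± 0.21 (limma adjusted p = 0.0189), a call that was lost without the IL-1b pair (-0.53, adjusted p = 0.519) and without the TNFa pair (-0.58, adjusted p = 0.0757).

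None of the 7 measured CYP2 genes, many of them drug-metabolising enzymes of the liver, passed the test, and their median was -0.20. CYP2S1, an enzyme found mainly outside the liver, had the largest difference among them, -0.56 (limma adjusted p = 0.0646), and CYP2B6 gave -0.14. Of the others, the readthrough transcript CYP3A7-CYP3A51P gave -0.29. CYP20A1, whose substrate is unknown, gave 0.20 on its brighter probe and -0.05 on a further one. The 11 CYP genes outside the 10 highest mean levels among those not called ran from -0.56 for CYP2S1 to 0.28 for CYP19A1, the aromatase of oestrogen synthesis. CYP2S1, CYP19A1, CYP1B1-AS1, CYP4B1 and ALDH6A1 fall outside the rule for names and were picked after their values were seen.

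Among the glutathione S-transferases 2 of 10 measured genes fell and none rose, with a median of -0.23. Without the vehicle pair 1 fell and the median was -0.05, and without the TNFa pair 4 fell and it was -0.51. GSTO2, known as a dehydroascorbate reductase, read 8.93, 8.70 and 8.60 in the GFP line and 7.69, 7.46 and 7.47 in the YAP(5SA) line. The lines did not overlap, and the difference was -1.21 ± 0.20 (limma SE, 3 pairs, adjusted p = 1.66e-05). As for CYP1A1, all 3 YAP(5SA) readings of GSTO2, and of CYP4F2, lay under the filter level, so no fold is given for these. GSTA4, which conjugates hydroxynonenal from oxidised lipids, read 10.97, 11.02 and 10.58 against 9.98, 10.05 and 10.23. All GFP readings were the higher ones, and GSTA4 fell by 0.77 ± 0.21 (limma adjusted p = 0.0065), a call lost without the vehicle pair (-0.67, adjusted p = 0.0574) and without the IL-1b pair (-0.67, adjusted p = 0.268).

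GSTP1, the main glutathione S-transferase of lung tumours, read 18.31, 18.27 and 17.90 in the GFP line and 17.74, 18.14 and 18.00 in the YAP(5SA) line. The lines overlapped, and the difference was -0.20 (limma adjusted p = 0.604), with -0.56 on a further probe. GSTO1, which shares the reaction of GSTO2, read 16.02, 16.13 and 15.59 against 16.17, 16.48 and 16.33. Its lines did not overlap, in the direction opposite to GSTO2, but its difference of 0.41 did not pass the test (limma adjusted p = 0.201). The mu class genes GSTM3, GSTM4, GSTM2 and GSTM5 gave -0.42, -0.35, -0.20 and 0.14, GSTT1 gave -0.26 and GSTA5 0.09, with limma adjusted p-values from 0.203 for GSTM3 to 0.884 for GSTA5.

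Among the UDP-glucuronosyltransferases UGT1A1, the enzyme that conjugates bilirubin, was the only 1 of 6 measured genes that passed the test. It read 9.67, 9.91 and 9.34 on the vehicle, IL-1b and TNFa arrays of the GFP line, and 8.28, 8.52 and 9.58 on those of the YAP(5SA) line. The YAP(5SA) vehicle and IL-1b arrays lay below all GFP arrays, whereas the YAP(5SA) TNFa array lay among them. The mean difference was -0.84 ± 0.24 (limma adjusted p = 0.00994), made up of -1.39, -1.38 and 0.24 in the 3 pairs, and UGT1A1 was the 1 call of 15 without the same sign in every pair. The call was lost without the vehicle pair (-0.57, limma adjusted p = 0.190) and without the IL-1b pair (-0.57, limma adjusted p = 0.437). It was also lost with the mean of all probes above the filter (0.0562), without the covariate (0.132) and with no filter (0.109). Only 1 probe of UGT1A1 was above the filter, so the mean of probes left its difference at -0.84. Its dimmer probes were not averaged in.

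UGT1A6, which conjugates small phenols and shares its downstream exons with UGT1A1, read 7.82, 8.07 and 7.97 against 7.85, 8.09 and 8.12. The difference was 0.07 (limma adjusted p = 0.889) with overlapping lines. The UGT2 genes, which conjugate steroids, bile acids and opioids, gave -0.41 for UGT2B28, 0.07 for UGT2B7, 0.18 for UGT2A3 and 0.22 for UGT2B10, with limma adjusted p-values from 0.218 for UGT2B28 to 0.877 for UGT2B7.

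The line difference of the CYP and GST members depended on the pair of arrays, as did that of all genes. For CYP the medians of the vehicle, IL-1b and TNFa pairs were -0.44, -0.37 and 0.09 and for GST -0.62, -0.40 and 0.16, while those of all genes were -0.10, -0.07 and 0.17. The ALDH medians were 0.07, -0.10 and 0.03, and the UGT medians -0.09, -0.07 and 0.21. The SD of the 3 pair medians was 0.289 for CYP, 0.0918 for ALDH, 0.402 for GST and 0.168 for UGT. The GFP and YAP(5SA) arrays of 18 measured members did not overlap (30%, beside 28.2% of all genes), and 11 of the 13 lower calls and 0 of the 2 higher calls were among them. Without the TNFa pair, 20 members were lower, while the lower calls of all genes went from 1101 to 1479. Members gained were 8, among them GSTM4 (-0.83, limma adjusted p = 0.00575) and CYP4F12 (-0.91, limma adjusted p = 0.00183). Without the IL-1b pair, 7 members were lower, while the calls of all genes went from 2077 to 1023.

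**Figure D3:**
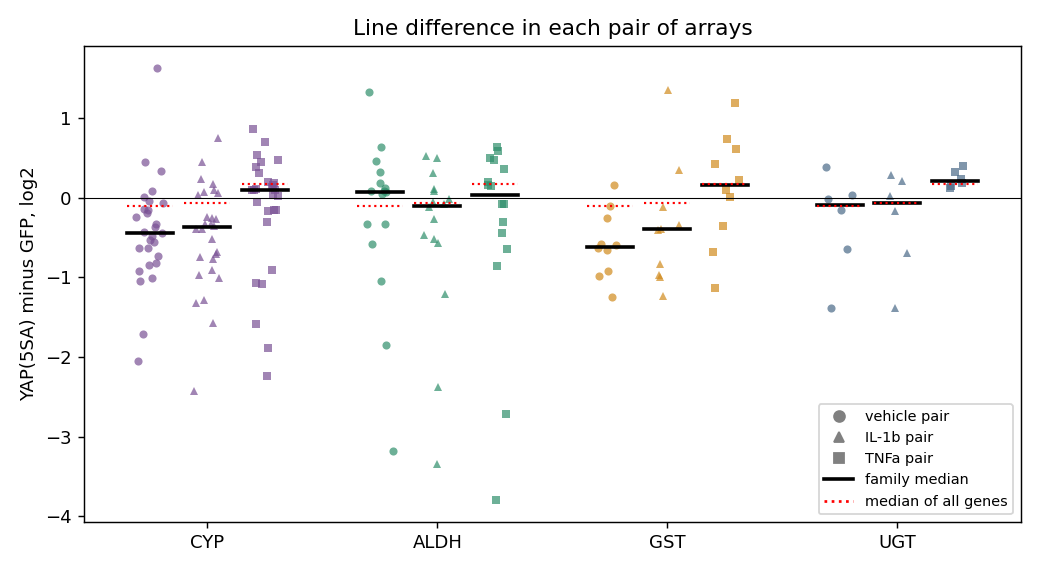
Line difference (YAP(5SA) minus GFP, log2) of each measured member in each pair of arrays, by family; black bars are family medians and dotted red bars the median of all genes. The GST median moves from -0.62 in the vehicle pair to 0.16 in the TNFa pair, and the ALDH median stays between -0.10 and 0.07.

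No measured member passed the test for a response to IL-1b or TNFa at 60 min. The limma fit called 292 of 12350 genes for IL-1b (2.36%, with 1.32% higher and 1.04% lower) and 95 for TNFa (0.769%, with 0.688% higher and 0.081% lower). The chemokine CCL20, a textbook early target of both cytokines, rose by 6.07 with IL-1b and 5.69 with TNFa (limma adjusted p = 2.39e-19 and 2.16e-18). At an unadjusted p under 0.05, 10 of 60 members passed for IL-1b, 4 higher and 6 lower (16.7%, beside 15.1% of all genes), and CYP4B1 alone for TNFa (1.67%, beside 4.46%). The lowest limma adjusted p among the members was 0.149 for IL-1b and 0.979 for TNFa. The 2 responses share their vehicle arrays.

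For IL-1b the mean responses of the members ran from -0.72 for ALDH1L2 to 0.71 for CYP2S1, with a median of 0.06 beside 0.03 for all genes. ALDH1L2 gave -0.32 in the GFP line and -1.12 in the YAP(5SA) line, and CYP51A1 gave -0.29 and -1.14. CYP2S1 gave 0.35 and 1.07. Without the GFP vehicle array, the only vehicle array left was that of the YAP(5SA) line, and the cytokine arrays of both lines stayed. The IL-1b response was then -1.10 for ALDH1L2, -1.11 for CYP51A1 and 1.07 for CYP2S1. CYP1A1 and CYP1B1 gave mean responses of -0.53 and -0.65, in the same direction in both lines, with limma adjusted p = 0.305 and 0.192.

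For TNFa the mean responses ran from -0.50 to 0.57, with a median of -0.01 beside -0.05 for all genes. The largest was that of CYP4B1, 0.28 in the GFP line and 0.87 in the YAP(5SA) line. By size alone, where the lines differed in their response by at least 1 and either response reached 1, the responses of 2 members differed. They were GSTM5 for IL-1b, beside 1.67% of all genes, and UGT1A1 for TNFa, beside 1.58%. GSTM5, of the mu class, gave -1.05 in the GFP line and 0.56 in the YAP(5SA) line, from readings of 8.81 to 7.76 and 8.56 to 9.11. UGT1A1 gave -0.33 in the GFP line and 1.29 in the YAP(5SA) line. With 1 array per condition these differences could not be tested. Without the GFP TNFa array, the only TNFa array left was that of the YAP(5SA) line, and the TNFa response of UGT1A1 was 1.29.

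**Figure D4:**
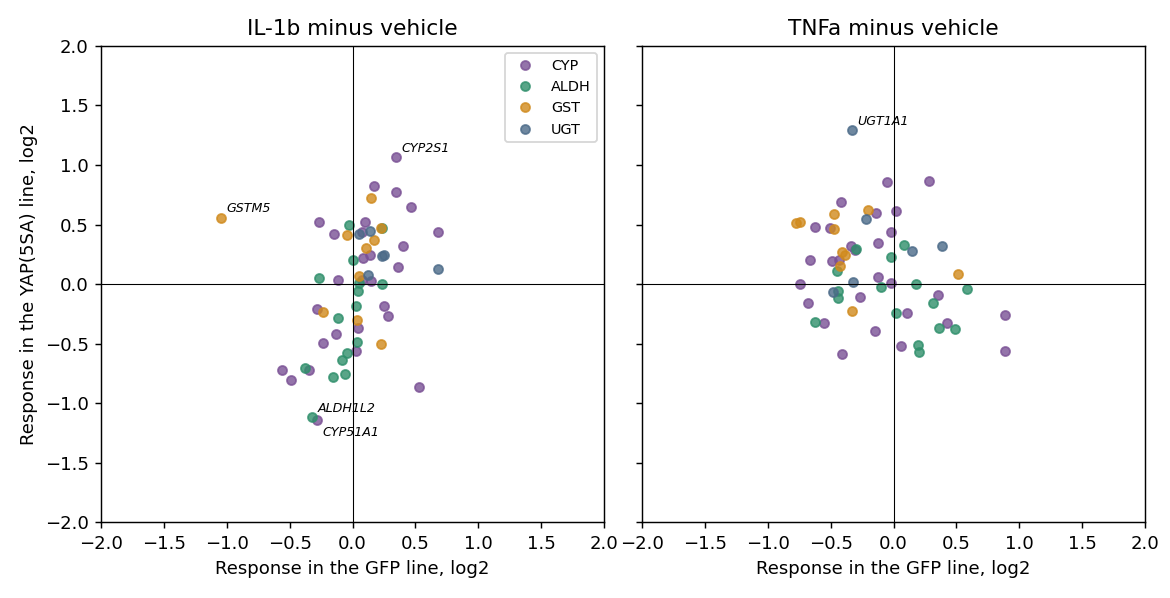
Response to IL-1b (left) and TNFa (right) of each measured member, in the GFP line (horizontal) and in the YAP(5SA) line (vertical), as the log2 difference from the vehicle array of the same line. Named points reach 1 in either line; GSTM5 and UGT1A1 lie on opposite sides of 0 in the 2 lines.

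The enzymes, pumps and receptors that work with these families were read from a list of 87 further genes, of which 57 were measured. The list was drawn up with earlier results of these data known, so its shares are a description and no independent evidence. Of these 57, 22 fell (38.6%) and 3 rose (5.26%) in the YAP(5SA) line, with a median of -0.34, beside 8.91% and 7.9% of all genes. Of 7 export pumps 5 fell, and their median was -0.96: ABCC1, ABCC2 and ABCC3, which carry glutathione and glucuronide conjugates, gave -1.11, -1.10 and -1.10, and the drug pump ABCB1 gave -0.96 (limma adjusted p from 8.13e-05 for ABCC2 to 0.000795 for ABCB1). Retinoid handling genes had 3 of 5 lower and a median of -1.34. They were DHRS3, which reduces retinaldehyde, at -2.39, STRA6, the retinol-binding protein receptor, at -1.49 and RDH10, which makes retinaldehyde, at -1.34 (limma adjusted p = 1.11e-11, 3.86e-07 and 4.7e-06). STRA6 was the 1 gene of the 57 that passed the filter through the GFP line alone, and without it 2 of 4 retinoid genes fell, with a median of -0.75.

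Of 10 measured genes of glutathione synthesis and microsomal transferases, 4 fell and 1 rose. This list also holds GSTZ1 and GSTK1, transferases that the rule for members leaves out. GGT1, which splits extracellular glutathione, gave -1.21 and the microsomal transferase MGST2 -1.20 (limma adjusted p = 1.95e-05 and 2.29e-05), GSTZ1 -0.80 and GSR, the glutathione reductase, -0.71, whereas GCLC, the catalytic subunit for glutathione synthesis, gave 0.58 (limma adjusted p = 0.0457). Of 8 other conjugation genes, SULT2B1, a sterol sulfotransferase, fell by 1.80 and UGDH, which makes UDP-glucuronic acid, by 0.82, whereas UGT8, which makes galactosylceramide, rose by 2.01. Of 9 genes of other oxidation, reduction and hydrolysis, the epoxide hydrolase EPHX1 gave -1.44 and the carbonyl reductase CBR3 -0.72, whereas the aldehyde oxidase AOX1 gave 1.35 (limma adjusted p = 6.88e-07, 0.00913 and 5.1e-06).

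Among 12 receptors and regulators 4 fell and none rose, with a median of -0.07. AHR, the aryl hydrocarbon receptor, gave -0.60 and its target TIPARP -0.73 (limma adjusted p = 0.0380 and 0.00961). NFE2L2, which encodes NRF2, gave -0.59 (limma adjusted p = 0.0476) and RXRA, the shared partner of nuclear receptors, -0.91. On the same list AHRR gave 0.52 with no overlap between the lines, but it did not pass the test (limma adjusted p = 0.114). ARNT gave -0.07 (limma adjusted p = 0.886). AHRR and ARNT fall outside the rule for names and were picked after their values were seen. Of 6 electron transfer partners of the CYP enzymes, POR, the reductase of the microsomal enzymes, gave -0.67 and the cytochrome b5 gene CYB5B -0.57 (limma adjusted p = 0.0173 and 0.0476). Of the 4 measured leukocyte markers CD14 alone was called, and it fell by 1.61. CD68, HLA-DRA and MS4A1 gave -0.35, -0.43 and 0.18 (limma adjusted p = 0.282, 0.233 and 0.642). The summed intensity of all 7 leukocyte markers, of which 4 were measured, ran from 5718 to 6467 on the GFP arrays. On the YAP(5SA) arrays it ran from 3051 to 4224. The sum includes CD14 and was not taken without it. No measured club, alveolar, endothelial or hepatocyte marker was called. Among fibroblast markers PDGFRB rose by 1.10, and among epithelial markers CDH1 and KRT18 rose by 1.65 and 0.63 and EPCAM fell by 1.03. With means of 8.50 in the GFP line and 7.46 in the YAP(5SA) line, EPCAM passed the filter through the GFP line alone. PDGFRB, with means of 7.28 and 8.38, passed it through the YAP(5SA) line alone. The part of the markers in the differences of the enzymes was not tested.

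The 40 members below the filter were 28 CYP, 3 ALDH, 4 GST and 5 UGT genes. They included the liver drug enzymes CYP3A4, CYP2D6 and CYP2C8, the bile acid enzyme CYP7A1, the adrenal steroid enzymes CYP11A1, CYP11B1, CYP11B2 and CYP21A2, the retinoid enzymes ALDH1A2 and CYP26C1, the alpha class genes GSTA1, GSTA2 and GSTA3, and UGT2B4, UGT2B11, UGT2B15 and UGT2B17. The measured members nearest the filter level of 7.79 were CYP2R1, with a mean of 7.82 over the 6 arrays, and CYP4F2, with 7.91. Just below it lay CYP46A1, with 7.72, and UGT2B4, with 7.68.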

How the data were processed

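The authors deposited a table of linear probe intensities, 1 column per array, from which background had been subtracted, since 10 to 1146 probes per array lay below 0. Every positive intensity under 10000 was a whole multiple of 1 step per array (tolerance 0.02). The background method, the scaling and any detection flags or scan batches are not stated in the labels or the table; per the labels' protocols, amplified antisense RNA was coupled to Cy5. Of 28264 probes, 25893 had 1 gene in the platform annotation, and all of these matched the RefSeq gene table, which changed 0 member symbols.

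Values below 0 were set to 0, 16 was added and log2 taken. The dimmest 40% of named probes by mean (under 7.79) were left out, and the brightest probe stood for its gene. Treatment and line were fitted additively with limma 3.58.1 in R 4.3.3 (lmFit, eBayes, Benjamini-Hochberg at 0.05). Promoter windows were searched with Python 3.11.15. The members, the lists and the rule for names were chosen with earlier results of these data known. The rule named every called member, up to 10 others per family by mean level, members whose probes differ in sign, those nearest the filter, and up to 4 called genes of each further list. Alternatives were quantile normalization, median centring, no filter or the dimmest 60% left out, and the mean of all probes above the filter. Further ones were pseudocounts of 1 and 64, eBayes with trend and robust estimation, and no covariate. Probes with a jump of over 3 on 1 array, and each array in turn, were also left out. Counting only genes above the filter in both lines was added after seeing the data.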

Additional observations from a re-analysis of the deposited data

Results flagged for a closer look

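Members were looked at again where the response to a cytokine had opposite signs in the lines, differed between them by at least 1 on the log2 scale and reached 1 in at least 1 line. GSTM5 gave -1.05 with IL-1b in the GFP line and 0.56 in the YAP(5SA) line, so that the responses differed by 1.60. UGT1A1 gave -0.33 with TNFa in the GFP line and 1.29 in the YAP(5SA) line, a difference of 1.62. Each line had 1 pair of arrays per cytokine, so neither difference was tested, and the same 3 conditions were met by 0.502% of all genes for IL-1b and 1.04% for TNFa. Without the condition that a response reached 1, opposite signs and a difference of at least 1 were met by 2 members for IL-1b and 8 for TNFa, beside 0.964% and 8.72% of all genes. The largest of the added ones was CYP26B1, with 0.53 and -0.87 for IL-1b and 0.89 and -0.56 for TNFa in the GFP and YAP(5SA) lines, and the others, all for TNFa, were GSTA5, GSTM4, CYP4F2, CYP3A7-CYP3A51P, CYP27A1 and GSTM2. With 3 arrays per line, no single array was tested for standing apart from its group.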

How the results depend on the processing

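Where a member was called in the main fit or in the alternative compared with it, its sign did not reverse. Members called in neither were not checked for a change of sign. Of the 15 called members, 7 kept the call in all 6 fits that left out an array (ALDH3A1, ALDH2, CYP1A1, CYP24A1, CYP4F2, CYP1B1 and GSTO2), and 10 kept it in all other alternatives in which they were measured. Leaving out an array gave 1 to 2 members higher and 7 to 20 lower between the lines, 1023 to 2300 calls among all genes, and 12 to 22 lower among the other detoxification genes. For the line difference the same fit resulted whichever array of a pair was dropped. Leaving out an array gave family medians from -0.47 to -0.14 for CYP, -0.04 to 0.12 for ALDH, -0.51 to -0.05 for GST and 0.02 to 0.08 for UGT. Over all alternatives the adjusted p of the calls that were lost in some ran from 0.000788 to 0.205 for ALDH1A3, 0.00801 to 0.171 for ALDH3B1, 0.000773 to 0.115 for ALDH1L2, 0.000547 to 0.0873 for CYP27C1, 0.00373 to 0.519 for CYP51A1, 0.00127 to 0.632 for CYP26B1, 0.000636 to 0.268 for GSTA4 and 2.47e-07 to 0.437 for UGT1A1. For IL-1b it gave 0 to 1 members higher, 0 to 2 lower and 58 to 692 calls among all genes, and for TNFa 0 to 1 members higher and 50 to 129 calls. With no filter, 4 of 100 members were higher and 15 lower, beside 865 and 1037 of all 19090 genes. In that fit the UGT median was -0.16, and 58 genes were called for IL-1b and 36 for TNFa. The calls of ALDH3B1 (limma adjusted p = 0.0686), CYP51A1 (0.0821), CYP26B1 (0.177) and UGT1A1 (0.109) were lost. With the dimmest 60% left out, fewer genes were tested, 7 members were lower, 1383 genes were called and 1 other detoxification gene was higher; no UGT gene remained, so there is no UGT median. The mean of all probes above the filter left 1 member higher and 12 lower, with 80 genes called for IL-1b and 45 for TNFa. CYP26B1 and UGT1A1 were lost, and with UGT1A1 the only UGT call. Both have 1 probe above the filter, so their differences did not change. eBayes with trend and robust estimation called 455 genes for IL-1b, and CYP4F12 between the lines (-0.56, adjusted p = 0.0458). Without the covariate 0 members were higher and 10 lower (ALDH3B1, ALDH1L2, CYP51A1, CYP26B1 and UGT1A1 were lost), 1410 genes were called between the lines, and 4 genes were called for IL-1b and 3 for TNFa. Quantile normalization and median centring each raised the other detoxification genes higher from 3 to 5 and left the members at 2 higher and 13 lower, but median centring moved the split of all calls from 976 higher and 1101 lower (47% higher) to 1430 and 964 (59.7%). Beyond the numbers of genes and arrays, the cause was not tested.

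The labels give no replicate numbers; the arrays of the lines are paired by treatment in the additive fit, and the fit without the covariate is the unpaired one. The limits are the 6 arrays, 1 line of each kind, the lack of repeats, the unknown probe sequences and the lack of detection flags, so that no limit of detection can be given for dim members.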

Other observations

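Some members below the filter also differed between the lines when all 19090 genes were fitted, and they are named here after their values were seen. Of the 40, 3 were higher and 5 lower (limma adjusted p under 0.05), beside 865 higher and 1037 lower of all 19090 genes. The share among all genes below the filter was not counted. CYP11B1, the enzyme of the last step of cortisol synthesis, read 6.33, 6.29 and 6.24 in the GFP line and 8.76, 7.46 and 8.90 in the YAP(5SA) line on its brightest probe. Its other probes differed by -0.18 and 0.77, so they did not share a sign. CYP7B1, an oxysterol hydroxylase, read 6.56, 6.67 and 6.38 against 7.79, 7.73 and 7.73. CYP2U1, a fatty acid hydroxylase, read 7.43, 7.23 and 6.95 against 8.07, 8.06 and 7.77. In none of these did the lines overlap, and the limma adjusted p-values were 0.000242, 0.00145 and 0.0285.

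In the other direction, CYP4F11, a neighbour of CYP4F2 in its subfamily, read 7.81, 7.76 and 7.99 in the GFP line and 6.14, 5.86 and 5.48 in the YAP(5SA) line, while a further, dimmer probe differed by 0.14. The steroid-conjugating UGT2B11 read 6.78, 6.66 and 6.28 against 5.20, 4.10 and 4, where 4 is the floor of the scale. UGT2B15, CYP4F3 and CYP11B2 were lower as well. Readings this dim lie near the floor of the scale, so no fold is given.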
